A study of Mus musculus with 10 samples.

Results

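The 8 genes described here encode transcription factors that specify, maintain or differentiate trophoblast, the outer lineage of the mouse conceptus that forms most of the placenta. They are Cdx2, Tead4, Elf5, Gcm1, Tfap2c, Ets2, Hand1 and Ascl2. All rows of the deposited table of CpG read counts that lay from 2 kb before to 2 kb after each gene's annotated span were taken, whatever their level. This gave 1203 cytosines of the 2391795 in the table, from 52 at Elf5 and 54 at Gcm1 to 210 at Cdx2 and 330 at Tfap2c. Homogenates of single mouse embryos at embryonic day 7.5 were sampled, 5 labelled control and 5 labelled arsenic, from the study's second experiment, measured by reduced representation bisulfite sequencing. This assay sequences the CpG-rich fraction of a digested genome after bisulfite treatment, which turns unmethylated but not methylated cytosines into uracil. The name of the deposited table marks the embryos as F2, so the label arsenic need not mean that an embryo was itself exposed. The sources used here do not give the arsenic dose, route or timing, the strain, the sex of the embryos or whether extraembryonic tissue was part of the homogenate. The design asked how the 2 groups differed. The table numbers its libraries 1 to 10, which matches no sample label, so no library was assigned to a group and control embryos were not compared with arsenic embryos. All values below describe the 10 libraries together.

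DNA methylation at CpG dinucleotides is a stable mark that, at CpG-dense gene starts, usually goes with silence, whereas the bodies of genes are commonly methylated whether or not they are transcribed. In the mouse, Tead4 is bound by the Hippo pathway coactivator Yap1 and acts upstream of Cdx2 in the outer cells of the early embryo, and Elf5, Tfap2c and Ets2 help to keep trophoblast stem cells in their state. Hand1, Ascl2 and Gcm1 act later, in giant cells, spongiotrophoblast and the labyrinth. The Elf5 promoter is a known lineage mark in mouse: it is methylated in embryonic stem cells and unmethylated in trophoblast stem cells. The DNA came from homogenised embryos, and in such bulk material a level between the extremes cannot tell a mixture of cell types from alleles or molecules that differ within a cell type.

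Sequences around annotated start sites are shown for 4 of the genes because they show which CpGs stand behind the values at the starts. RefSeq gave promoter windows, from 250 bases before to 50 bases after a start site, for 5 of the 8 genes on the assembly GRCm38.p6, whose positions are those of mm10. Tead4, Tfap2c and Hand1 had no entry. Each sequence reads 5′ to 3′ on the gene's strand in lower case, and capitals mark the CpGs that were assayed on at least 1 strand. The Ets2 window (chr16:95702157-95702456, plus strand) holds 30 CpGs, the Ascl2 window (chr7:142969215-142969514, minus strand) 23, the window at the downstream Elf5 start (chr2:103423818-103424117, plus strand) 10 and the Gcm1 window (chr9:78051708-78052007, plus strand) 1.
Ets2: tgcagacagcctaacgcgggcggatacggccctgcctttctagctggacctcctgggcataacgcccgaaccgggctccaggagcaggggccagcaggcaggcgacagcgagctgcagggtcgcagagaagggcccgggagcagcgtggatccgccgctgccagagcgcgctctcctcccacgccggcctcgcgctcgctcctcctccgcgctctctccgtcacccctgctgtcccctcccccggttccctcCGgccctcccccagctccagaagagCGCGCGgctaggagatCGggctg
Ascl2: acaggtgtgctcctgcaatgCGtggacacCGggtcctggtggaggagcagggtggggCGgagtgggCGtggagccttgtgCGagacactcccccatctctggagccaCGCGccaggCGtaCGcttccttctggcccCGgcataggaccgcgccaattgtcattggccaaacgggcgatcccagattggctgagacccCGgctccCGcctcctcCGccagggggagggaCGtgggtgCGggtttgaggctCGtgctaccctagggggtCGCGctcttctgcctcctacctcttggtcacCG
Elf5, downstream start: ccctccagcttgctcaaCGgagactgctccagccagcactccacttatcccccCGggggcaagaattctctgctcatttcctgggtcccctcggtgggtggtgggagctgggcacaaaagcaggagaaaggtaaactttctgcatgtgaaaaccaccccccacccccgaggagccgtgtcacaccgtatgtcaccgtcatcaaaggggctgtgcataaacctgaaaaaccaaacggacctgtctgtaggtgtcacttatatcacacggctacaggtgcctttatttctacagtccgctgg
Gcm1: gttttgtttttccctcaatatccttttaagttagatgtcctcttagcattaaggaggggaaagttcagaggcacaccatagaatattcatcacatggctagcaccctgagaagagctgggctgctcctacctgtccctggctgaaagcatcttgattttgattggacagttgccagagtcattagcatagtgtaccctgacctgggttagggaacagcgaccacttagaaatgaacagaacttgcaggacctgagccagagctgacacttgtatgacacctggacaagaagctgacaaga
Among 32851 RefSeq windows of the same 300 bases, the median was 7 CpGs, and 88.3% held fewer than Ets2, 78.5% fewer than Ascl2, 56.5% fewer than this Elf5 window and 5.43% fewer than Gcm1. The assay read 5 of the CpGs in the Ets2 window, 19 in the Ascl2 window, 2 in the downstream Elf5 window and none in the Gcm1 window. All 9, 36 and 2 assayed cytosines of the Ets2, Ascl2 and Elf5 windows fell on a CpG of the printed sequence. The motif CCGG, which reads the same on both strands and is the site of MspI, an enzyme commonly used for this assay, occurred 5 times in the Ets2 window, 3 times in the Ascl2 window, 1 time in this Elf5 window and 0 times in the Gcm1 window, and 52.8% of all RefSeq windows held it. Which enzyme cut these libraries is not stated in the labels. The upstream Elf5 start (chr2:103411848-103412147) had 3 CpGs and the Cdx2 start (chr5:147307200-147307499) had 18 CpGs, and none of these was assayed.

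Libraries had summed coverages of 94583116 to 127102232, where a read counts at every CpG it spans, and every cytosine had at least 10 reads in every library. A level here is the methylated share of a cytosine's reads, averaged over the cytosines of a zone with equal weight and pooled over the 10 libraries unless a library is named. The mean level of all 2346489 autosomal cytosines was 41.6%, from 40.3% to 42.8% over the libraries, whereas the 1203 cytosines of the 8 genes averaged 20.9%, from 19.8% to 21.9%. Of these, 627 (52.1%) were under 5% methylated, against 25.0% of all autosomal cytosines. That reference is not limited to gene ends, which are commonly low. Of all measured 5′ ends of protein-coding genes with known strand, 56.5% were under 5%. Among them 21.7% were lower than the 5′ end of Cdx2, 32.1% lower than that of Ets2 and 70.0% lower than that of Ascl2. The rate of incomplete bisulfite conversion was not estimated here, so what part it has in the lowest levels, and in ranks among them, was not tested. The assayed cytosines of the 8 genes were not alike: 86.7% of those at Cdx2 were under 5%, and 0 of the 52 Elf5 and 0 of the 54 Gcm1 cytosines were. Their places differed too: 102 of the Cdx2 cytosines were at its 5′ end, where none was assayed at Elf5 or Gcm1. Of all measured protein-coding gene bodies, 2.60% had a mean level under 5%. In all, 108 cytosines of the 8 genes had no methylated read over all libraries, on 179 to 1218 reads each. This allows levels of up to 1.68% at the fewest reads and 0.246% at the most, for counting error only and with every read taken as separate. Both limits would be higher if each fragment was counted in both of its reads.

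Each gene was divided into its 2 ends, each from 2 kb outside to 1 kb inside the annotated span, and the body between, and a zone was read only with at least 3 cytosines. Of the 24 zones, 18 were measured. Both ends of Elf5, the 5′ end of Gcm1, the 3′ end of Ets2, the lower-coordinate end of Tead4 and the body of Ascl2 were unmeasured. An end could be called 5′ or 3′ only where RefSeq gave the strand; for Tead4, Tfap2c and Hand1 the ends are named by coordinate. Exons, introns and UTRs were not analysed here, since the annotation used gives gene spans only. Another annotated gene overlapped the assayed cytosines at Hand1 alone, where 28 of its 142 lay within the long noncoding RNA gene Gm32915.

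**Figure D1:**
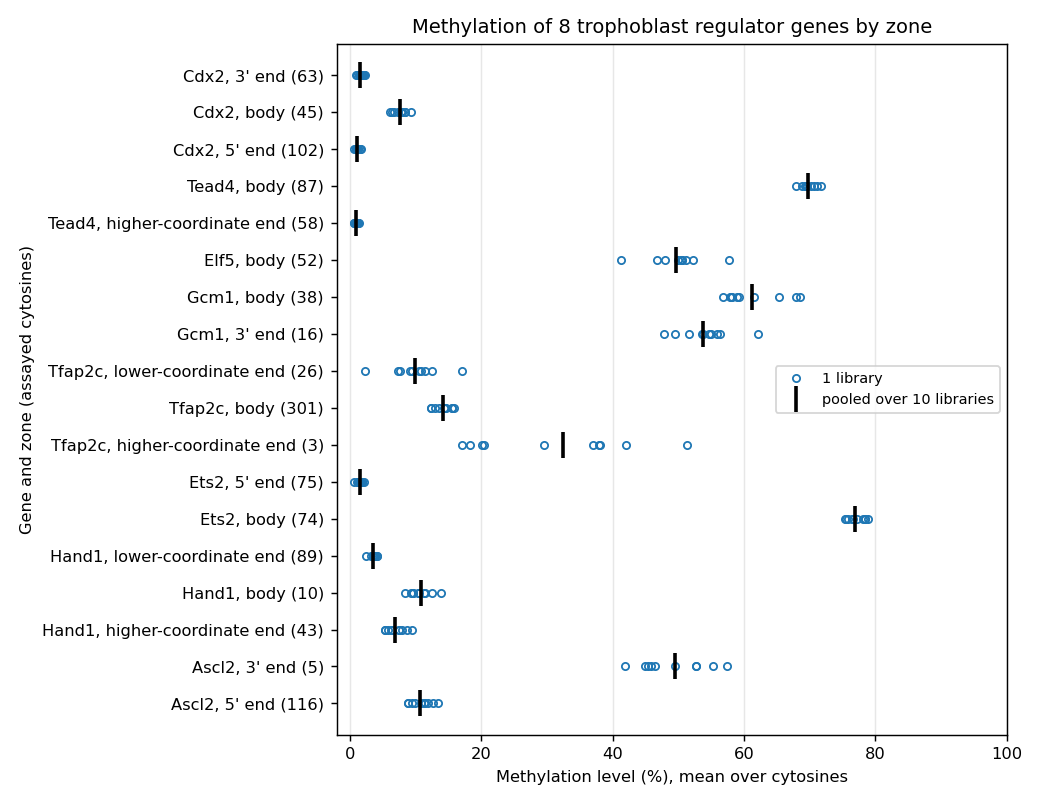
Methylation level (%, x axis) of each measured zone of the 8 genes (y axis, with the number of assayed cytosines); open circles are the 10 libraries and black ticks the pooled level. Cdx2, Tead4 and Ets2 have an end under 2% in the pooled level, whereas all libraries of the Elf5 and Gcm1 zones lie between 41.3% and 68.5%.

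Tead4, which encodes a TEA-domain factor and lies on chromosome 6 (128227143 to 128300813), had a highly methylated body and a nearly unmethylated end. Its higher-coordinate end had a level of 1.01% over 58 cytosines, with a lowest library of 0.681%, a median of 1.09% and a highest of 1.34%, and 53 of the 58 were under 5%. Its body stood at 69.8% over 87 cytosines, from 67.9% to 71.7% over the libraries with a median of 69.6%. All libraries of the body lay far above all libraries of the end.

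The level varied along the body of Tead4. Cytosines no more than 500 bp from the next were joined into blocks of at least 3, a division that uses positions only. The block nearest the lower-coordinate end (128228671 to 128229158) had a level of 83.3%, and the block with the highest level, at 128268632 to 128269684, had 86.7% (84.0% to 91.4% over the libraries). The blocks between them were at 84.1% and 79.1%. Beyond the block with the highest level and the next one, at 79.7%, a block of 6 cytosines at 128276580 to 128276763 was lower, at 61.9% (54.8% to 68.4%), and the next, at 128283530 to 128283922, was at 77.6%. Toward the higher-coordinate end the level was 63.3% at 128290407 to 128291032, then 49.2% (45.2% to 54.5%) at 128292237 to 128292485, then 15.8% (12.9% to 18.7%) at 128296570 to 128297305. The level thus fell over the last kilobases before the unmethylated end, and the libraries of the last 2 blocks and of the end did not overlap. At 2 CpGs of the block at 128292237 the strands differed by more than 20 points: 69.2% on plus against 40.9% on minus at position 128292334, and 16.0% against 67.7% at position 128292484. At the second of these CpGs the plus strand had a range of 9.43% to 25.6% over the libraries and the minus strand 56.1% to 77.8%, so the contrast was there in every library. No other CpG of the 8 genes read on both strands differed by that much.

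Cdx2, the caudal-type homeobox factor of trophectoderm, on chromosome 5 (147300900 to 147307249), was low at both ends and at most assayed cytosines of its body. The 5′ end was at 1.17% over 102 cytosines, with a lowest library of 0.725%, a median of 0.999% and a highest of 1.76%. All 102 lay from 137 to 999 bp after the start, none upstream of it. Pooled over these cytosines, 1.13% of 38874 reads were methylated (95% Wilson interval 1.03% to 1.24%), an interval that is too narrow because a read counts at each CpG it spans. The 3′ end was at 1.62% over 63 cytosines (0.933% to 2.37%), a place where levels are usually high: among the 5532 protein-coding genes with a measured 3′ end of known strand, 4.52% were lower, and their median was 58.8%. The body was at 7.63% over 45 cytosines (6.08% to 9.32%), and at 4.27% over 98 cytosines where the ends reached only 500 bp into the gene. The raised part of it was a block of 10 cytosines (147301968 to 147302152), 5097 to 5281 bp downstream of the start, at 22.9% with a lowest library of 19.7%, a median of 23.5% and a highest of 26.8%. The block upstream of it in the gene, 1564 to 2152 bp from the start, stood at 3.33% over 33 cytosines. The libraries of the 2 blocks did not overlap. Single cytosines of the raised block ran from 3.81% to 36.0%. No cytosine was assayed between 147302152 and 147305097, so how far the raised stretch reached is not known.

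**Figure D2:**
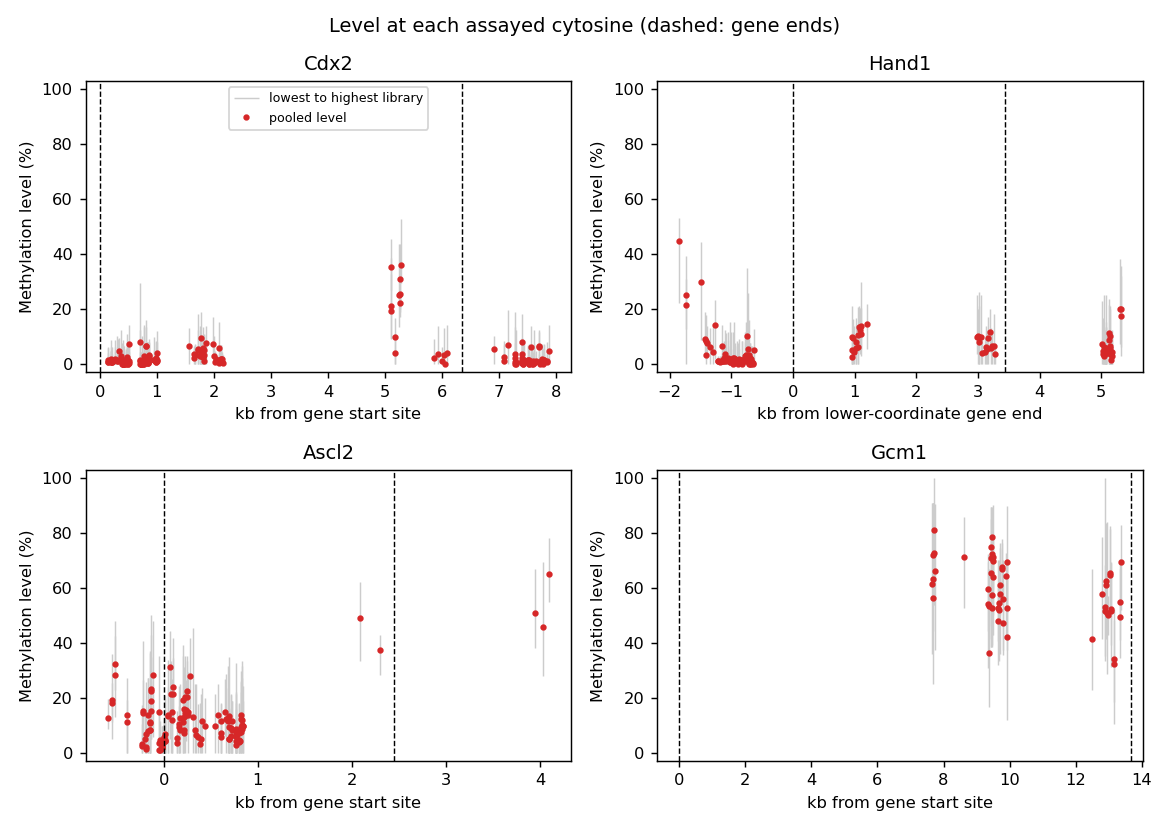
Pooled methylation level (%, y axis, red points) of each assayed cytosine at Cdx2, Hand1, Ascl2 and Gcm1 against distance in kb (x axis) from the start site or, for Hand1, from the lower-coordinate gene end; grey lines join the lowest and highest library and dashed lines mark the gene ends. The assayed Cdx2 cytosines are low but for a stretch about 5 kb from its start, and no Gcm1 cytosine is under 32.1%.

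Tfap2c, which encodes the AP-2 gamma factor, on chromosome 2 (172545678 to 172558622), had a long stretch of low level inside its span. From 172546932 to 172551774, over 4843 bp, 229 cytosines averaged 2.06%, with a lowest library of 1.67%, a median of 2.00% and a highest of 2.58%, and 205 of them were under 5%. Its bounds were chosen after the values were seen, and no cytosine was assayed between 172547742 and 172549652 within it. The stretch did not reach the lower-coordinate end, where 26 cytosines were at 9.96%. This end had a wide spread, with 2.25% in library 5, a median of 9.97% and 17.0% in library 2. Beyond the stretch the level was 43.0% (35.8% to 54.8%) over 27 cytosines at 172554110 to 172554679 and 58.3% (45.9% to 64.6%) over 45 cytosines at 172555421 to 172557440. The mean of the whole body, 14.1%, thus joins 2 unlike stretches, and at a minimum of 20 reads in every library it was 7.47% over the 119 cytosines left. The higher-coordinate end had only 3 cytosines, at 32.5% with libraries from 17.0% to 51.3%, too few to set beside the other zones.

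Ets2, an ETS-domain factor needed in trophoblast, on chromosome 16 (95702407 to 95721049), paired an unmethylated start with a highly methylated body. The 5′ end was at 1.55% over 75 cytosines, with a lowest library of 0.594%, a median of 1.60% and a highest of 2.23%, and the 9 assayed cytosines in the promoter window printed above, all from 2 to 44 bp after the start, were at 0.581%. The body was at 76.9% over 74 cytosines, from 75.4% to 78.8% with a median of 76.9%, above 86.7% of the 14136 protein-coding gene bodies measured, whose median was 57.5%. Level rose with distance from the start in 3 of 4 steps: 1.67% over the block from 2 to 1001 bp, 60.2% from 6234 to 6503 bp, 81.2% from 9401 to 9629 bp, 78.9% from 11714 to 11853 bp and 89.3% (87.6% to 92.1% over the libraries) from 16576 to 17131 bp. The libraries of the blocks at 9401 and 11714 bp overlapped, and those of the block at 16576 bp lay above all others.

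**Figure D3:**
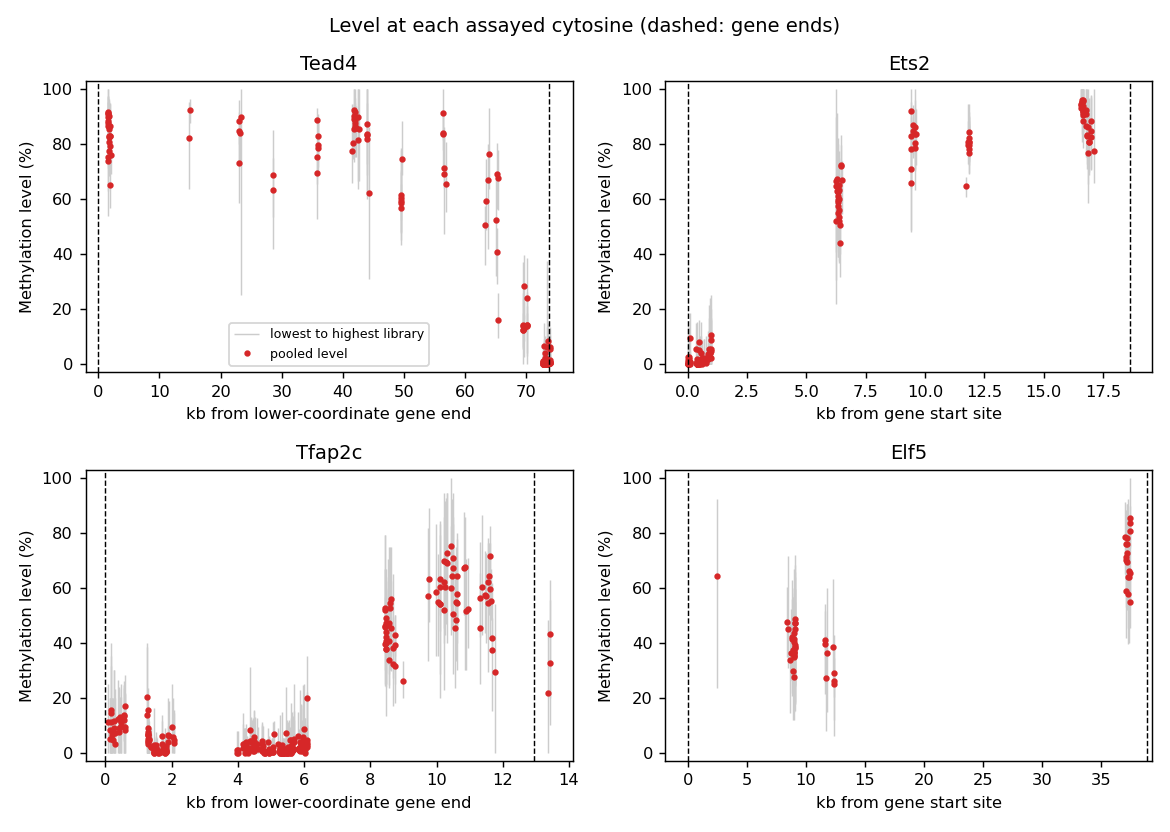
Pooled methylation level (%, y axis, red points) of each assayed cytosine at Tead4, Ets2, Tfap2c and Elf5 against distance in kb (x axis) from the start site or, for Tead4 and Tfap2c, from the lower-coordinate gene end; grey lines join the lowest and highest library and dashed lines mark the gene ends. Tead4 and Ets2 pair an unmethylated end with a methylated body, Tfap2c is low to about 6 kb, and Elf5 has no cytosine under 25.0%.

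Elf5, on chromosome 2 (103412098 to 103450989), was at intermediate level wherever it was assayed around its downstream start. RefSeq places start sites at 103412098 and 103424068, and no cytosine was assayed within the window of the upstream one. The cytosine nearest to the upstream start, 2466 bp after it, was at 64.2% on 165 reads. A block of 4 cytosines from 345 to 196 bp before the downstream start was at 35.9%, with a lowest library of 20.9%, a median of 35.7% and a highest of 50.6%. The 2 CpGs in capitals in the printed window belong to it, at 27.2% and 36.3% on 346 and 342 reads. A block of 4 cytosines from 344 to 447 bp after that start was at 29.7% (24.8% to 34.8%). Upstream of both, a block of 25 cytosines from 103420499 to 103421202, was at 39.4%, with a lowest library of 23.7%, a median of 39.8% and a highest of 53.6%. Near the other end of the gene, 18 cytosines from 103449162 to 103449602 were at 70.7% (66.4% to 74.2%), and no library of the blocks nearer the starts reached that range.

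Elf5, an ETS factor, had the widest spread of libraries of the zones with at least 5 cytosines, 16.5 points. Over all 52 cytosines of its body the level was 49.7%, with 41.3% in library 9, a median of 50.5% and 57.8% in library 4. That is a common level for its place: 33.1% of protein-coding gene bodies were lower, and their median was 57.5%. Library 9 was lowest and library 4 highest both in the block before the downstream start and in the block of 25 cytosines, but not in the blocks after the start or at the far end. The SD of the 10 libraries was 8.08 points in the block of 25 and 2.33 points in the block at the far end. Read counting would give 8.98 and 8.94 points if all cytosines of a block were read on the same fragments. Those 2 values take each fragment as counted in both of its reads, and both library SDs lay below them. Whether the libraries differed beyond read counting was not tested for blocks.

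**Figure D4:**
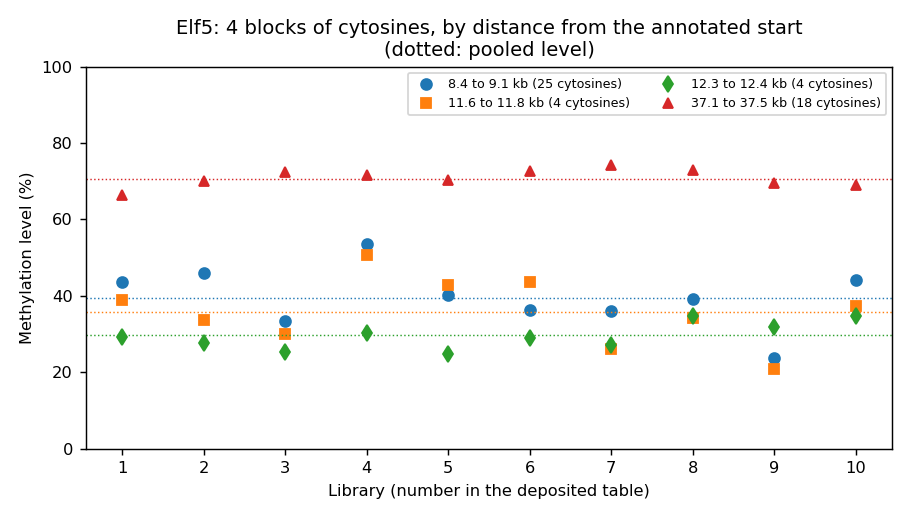
Methylation level (%, y axis) of 4 blocks of Elf5 cytosines in each library (x axis, numbers of the deposited table, which are not sample labels); symbols give the block by its distance from the upstream annotated start and dotted lines its pooled level. Libraries 9 and 4 are lowest and highest in the blocks at 8.4 to 9.1 kb and 11.6 to 11.8 kb, and the block at 37.1 to 37.5 kb lies between 66.4% and 74.2%.

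Hand1, a basic helix-loop-helix factor of trophoblast giant cells that also acts in the heart, on chromosome 11 (57828713 to 57832147), was low throughout. Its lower-coordinate end was at 3.60% over 89 cytosines, with a lowest library of 2.497%, a median of 3.69% and a highest of 4.17%. Of these 89, 74 were under 5%, and the highest, at 44.7%, was the outermost one, at position 57826863. With the end taken as 1 kb on either side the level was 2.02%. The body was at 10.8% over 10 cytosines (8.43% to 13.9%), and the higher-coordinate end was at 6.86% over 43 (5.31% to 9.42%), 28 of which lie within Gm32915. The libraries of the lower-coordinate end lay below those of the body and of the other end, and the latter overlapped each other. Of protein-coding gene bodies, 4.87% were lower than that of Hand1.

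Ascl2, a basic helix-loop-helix factor of spongiotrophoblast, is an imprinted gene expressed from the maternal allele in mouse and lies on chromosome 7 (142966822 to 142969264). Its 5′ end was low but not unmethylated, at 10.7% over 116 cytosines, with a lowest library of 8.83%, a median of 11.0% and a highest of 13.4%, and 25 of the 116 were under 5%. Of the 10971 protein-coding genes with a measured 5′ end of known strand, 70.0% were lower, and their median was 3.51%. The level alternated over short distances in the printed window, whose 36 cytosines averaged 8.54% (6.17% to 10.3%). Relative to the start, cytosines from -13 to -46 bp were at 0.922% to 4.42%. Those from -113 to -134 bp were at 15.1% to 28.1%. Further out, at -183 and -184 bp, the 2 strands of a CpG were at 1.88% and 1.21%. On both sides of the gene start, from 142968419 to 142969859, no cytosine was above 32.2%. The 5 cytosines of the 3′ end were at 49.5%, from 41.9% to 57.5% with a median of 48.0%, and no library overlapped the 5′ end.

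Gcm1, the glial cells missing homolog that drives labyrinth branching, on chromosome 9 (78051958 to 78065624), was the most methylated of the 8 genes as a mean over its cytosines, at 59.0% over all 54 (55.5% to 64.4%). No cytosine was assayed at its 5′ end, so these values say nothing of its start. This rank depends on the zones assayed: the means of Ets2 and Tead4 include a nearly unmethylated end. The bodies of these 2 genes, at 76.9% and 69.8%, were higher than that of Gcm1. The body of Gcm1 was at 61.2% over 38 cytosines, with a lowest library of 56.8%, a median of 59.1% and a highest of 68.5%. The 3′ end was at 53.8% over 16 cytosines (47.8% to 62.2%, median 54.2%), and its libraries overlapped those of the body. Both are common levels for their place: 58.4% of gene bodies and 41.8% of 3′ ends were lower. A block of 7 cytosines at 78059621 to 78059709 had the widest range of any block of the 8 genes, 49.9% in library 9 against 90.8% in library 5, with a mean coverage of only 14 reads in the least covered library.

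Whether the libraries differed beyond read counting was tested at each cytosine by a chi-square test of homogeneity (9 degrees of freedom), adjusted by Benjamini-Hochberg over all 1755343 autosomal cytosines with a pooled level of 5 to 95%. Counts were halved, as if each fragment was counted in both of its reads; among all cytosines, 42.1% of methylated counts and their unmethylated partners were even together. This is not a test between the study's groups. At an adjusted p under 0.05 it called 1 of the 571 tested cytosines of the 8 genes (0.175%), and 0.0867% of all cytosines were called. At an unadjusted p under 0.05 the numbers were 48 of 571 (8.41%) against 6.5% of all. Neighbouring cytosines share reads, so those counted here are not independent, and the shares were not compared by a test. The called cytosine lay in the body of Tead4 (chromosome 6, 128250401, minus strand; adjusted p 0.000185 by the chi-square test, and 9.32e-06 to 0.00475 with 1 of the other libraries left out). There 7 of the libraries were fully methylated, library 7 was at 86.2%, library 4 at 66.7% on 18 reads and library 6 at 25% on 16 reads. Over all libraries 196 of its 218 reads were methylated. Unmethylated reads were thus few per library, and the p-value, which assumes larger counts, is only approximate. With library 6 left out, the pooled level of the Tead4 cytosine passed the upper limit of 95%, so it was not tested. A cytosine of Ascl2 was then called, at adjusted p 0.0322 by the chi-square test.

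With the counts as deposited the same test called 155 of the 571 (27.1%), against 25.4% of all autosomal cytosines, a share near that of the table. The shares by gene ran from 9 of 50 tested cytosines at Hand1 and 19.6% of 92 at Tead4 to 34.4% of 96 at Ascl2 and 38.5% of 52 at Elf5. With halved counts, 16 of 96 Ascl2 cytosines (16.7%) and 8 of 52 Elf5 cytosines (15.4%) had an unadjusted p under 0.05, against 6.5% of all, and none had an adjusted p under 0.05. As neighbouring cytosines share reads, these are not separate observations, and the shares were not tested against that of all cytosines. The smallest adjusted p by the chi-square test was 0.0627 at Ascl2 (142968499, libraries from 0% to 32.6%) and 0.0705 at Elf5 (103421157, from 17.6% in library 9 to 59.5% in library 4). At a minimum of 20 reads in every library, which leaves fewer cytosines to adjust over, these 2 of 344 tested (0.581%) were called, at adjusted p 0.0424 and 0.0480 by the chi-square test, against 0.167% of all. Only 46 of the 627 reads of the Ascl2 cytosine were methylated, few per library, so its p-values are only approximate. At pooled levels of 20 to 80%, which leave out the Ascl2 cytosine, 0 of 275 tested cytosines of the 8 genes were called, against 0.0226% of all. No library stood apart over the zones: of the 18 measured ones, a given library was lowest in 1 to 3 and highest in 0 to 4.

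The other genes of the trophoblast programme were read at 1 end each: the 5′ end where the strand was given, otherwise the end with more cytosines. Over 14120 autosomal protein-coding genes read this way the median was 4.00%, and 54.2% were under 5%. Among partners of the 8 factors in trophoblast stem cells, 10 of 12 genes were measured, with a median of 5.27% and 4 under 5%. At a minimum of 20 reads in every library the median was 9.96% over 9 genes. The lowest were Klf5, a Krüppel-like factor, at 1.02% (0.632% to 1.76% over the libraries) and Id2, an inhibitor of basic helix-loop-helix factors, at 1.18%. Eomes, the T-box factor of trophoblast stem cells, was at 1.60% (0.902% to 3.18%) over 101 cytosines and Gata3 at 5.13% (3.30% to 6.30%). The highest were Ehf, an ETS factor gene that is also on chromosome 2, at 38.9% (35.8% to 43.4%) and Esrrb, an orphan nuclear receptor, at 44.6% (41.1% to 51.5%).

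The Hippo pathway, which relays cell position to Tead4, was low at nearly every gene: 12 of 14 measured genes were under 5%, with a median of 1.93%. Stk3 and Lats1, kinases of the pathway, were lowest at 0.599% and 0.694%. Yap1 was at 5.07% (4.04% to 7.09%), and Sav1, a scaffold of the kinases, was the exception at 52.3% over 6 cytosines (39.5% to 57.6%). All 3 paralogs Tead1, Tead2 and Tead3 were low, at 1.19%, 0.920% and 1.84%, as was the end of Tead4. The 11 signalling genes had a median of 5.82%. It was 1.91% at a minimum of 20 reads in every library and 3.35% with ends within 1 kb. The all-gene median of 4.00% was taken at the main setting, so these 2 values cannot be set against it. Frs2, an adaptor of fibroblast growth factor receptors, was at 0.826%, Tdgf1, a coreceptor of Nodal, was at 32.7% and Furin, a protease that processes Nodal, was at 64.3% over 12 cytosines. Of 21 genes of differentiated trophoblast and placenta, 15 were measured, with a median of 7.02% and 5 genes between 20 and 80%. Cited2 and Bhlhe40 were lowest, at 0.917% and 1.44%, and Peg10, an imprinted gene, and Syna, which encodes a syncytin, were highest at 53.3% (45.8% to 66.0%) and 70.9% (59.3% to 76.2%). Family members of the 8 genes had a median of 6.28% over 11 of 14, from Elf1 and Elf2 at 1.12% each to Cdx4, on the X chromosome, at 18.6% and Ets1 at 19.96%. These lists are descriptions: their medians were not tested against other genes.

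**Figure D5:**
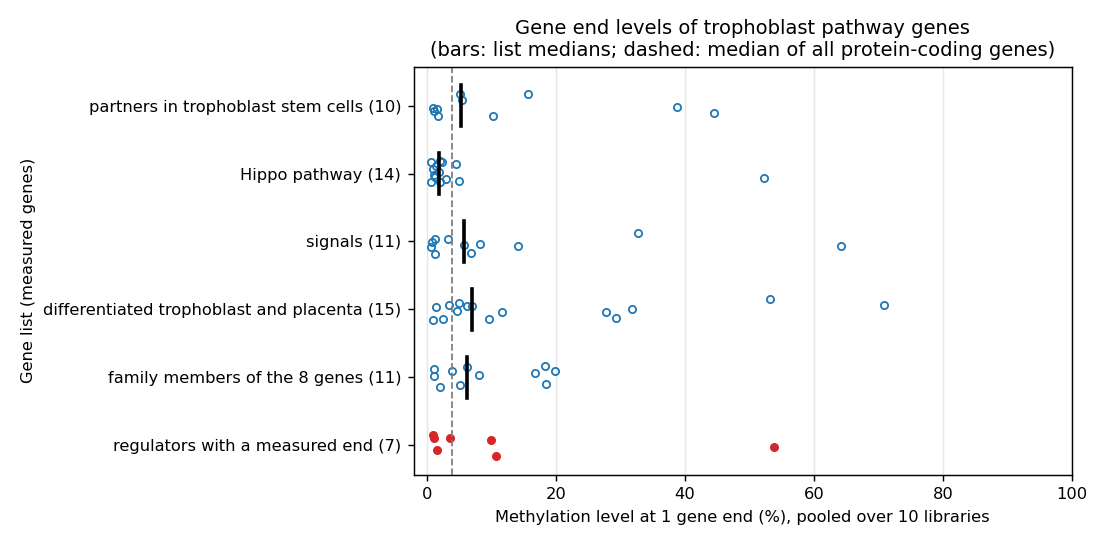
Pooled methylation level at 1 end of each gene (%, x axis) for the lists of trophoblast pathway genes and, in red, the 7 of the 8 regulators with a measured end (y axis, with the number of measured genes); bars are list medians and the dashed line is the median of all protein-coding genes, 4.00%. The red point at 53.8% is the 3′ end of Gcm1, and 1 Hippo gene, Sav1, stands at 52.3%.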

How the data were processed

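Reduced representation bisulfite sequencing was done on DNA of 10 mouse embryos, column-purified embryo by embryo, per the labels' protocols. Trim Galore, Bismark and methylKit are named with mm10, per the submitters' processing notes, without versions or roles; deduplication and mate overlap are not stated there. The deposited table holds raw counts of methylated and unmethylated reads per CpG cytosine and strand, each row covered by 10 or more reads in every library, per the file headers and values. Its 30 per-sample columns could be tied to no sample or group, so the planned exact permutation test of control against arsenic was not run. Values are given as pooled levels with the range over the libraries, without mean and SD of the libraries except for the SDs of Elf5 blocks. Replicates were separate embryos.

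Levels, zones, blocks and the chi-square test were computed in Python 3.11.15 with numpy 2.4.6, pandas 2.3.3 and scipy 1.17.1. Genes, strands and promoter sequences came from RefSeq (GRCm38.p6). The chi-square test was checked on simulated data in which every fragment was counted in both of its reads, the case for which halving is made. In the deposited counts 42.1% of pairs were even together, so the check does not cover counts that are doubled only in part. The 8 genes, the pathway lists and the tests were chosen with earlier results of these data known. All 8 genes are named, with the 2 lowest and 2 highest genes of each pathway list and always Eomes, Gata3 and Esrrb; 1 gene that this rule names is not reported here. Tead1, Tead2 and Tead3 were named after their values were seen. Blocks were defined after the data were seen. Wilson intervals and limits from counts of 0 cover counting error only and take every read as separate. Alternatives were a coverage minimum of 20, gene ends within 1 kb or 500 bp, summed reads, merged strands and leaving out each library.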

Additional observations from a re-analysis of the deposited data

How the results depend on the processing

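No paired analysis was possible because the columns match no sample label. Ends within 500 bp gave 1.34% for Tead4, 57.8% for the 3′ end of Gcm1 over 3 cytosines and 1.06% for Ets2; Hand1 was at 4.12% with strands merged and 2.02% with the end within 1 kb. The list medians of partners, Hippo genes, signals and all lists were 9.96%, 1.31%, 1.91% and 4.42% with a coverage minimum of 20, and those of Hippo genes, signals and all lists were 1.46%, 3.35% and 3.35% with ends within 1 kb. These settings use fewer cytosines or genes; the cause was not otherwise tested. The end of Hand1 within 500 bp and that of Ascl2 at its 3′ side within 1 kb held under 3 cytosines, as did the higher-coordinate end of Tfap2c at a coverage minimum of 20. Cytosines called for differences between libraries numbered 1522 over the autosomes, 446471 with counts as deposited and 300 at pooled levels of 20 to 80%; at the 8 genes they numbered 1, 155 and 0 (19 at an unadjusted p under 0.05 by the chi-square test), 2 with a coverage minimum of 20, and 1 to 2 with a library left out. The body of Cdx2 was at 4.27% with ends within 500 bp and that of Tfap2c at 7.47% with a coverage minimum of 20. The planned comparison of control with arsenic, with or without each replicate, was not run. Depth limits single cytosines: median coverage was 30 to 42 reads per library.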
